A study of Mus musculus with 2 samples.

Results

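The Myc network is the family of dimerizing transcription factors built around Max, and its 10 genes Myc, Mycn, Mycl, Max, Mxd1, Mxd3, Mxd4, Mnt, Mxi1 and Mlx were read here by their gene symbols among the 34745 genes measured in bone marrow (BM) LSKs. LSKs lack lineage markers and carry Sca1 and c-Kit, and are the population that holds the hematopoietic stem cells and early progenitors of the mouse. They came from C57BL/6 Scl/tTA-BCR/ABL (BA) mice, which carry a BCR/ABL transgene under a tetracycline-controlled promoter and a transactivator driven by Scl sequences, so that BA is held off by doxycycline and expressed in hematopoietic stem and progenitor cells after its withdrawal. The week-0 group carried both transgenes and was kept on doxycycline, and the week-3 group was sampled 3 weeks after withdrawal. Each group was 1 RNA-seq library from pooled LSKs of 3 mice, so the spread between mice is unknown, no difference has a replicate check, and no p-value is given. The age of the mice is not given in the sources used here.

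Members of the network bind DNA as dimers through a basic helix-loop-helix leucine zipper, most often at the E-box CACGTG. Myc, Mycn and Mycl dimerize with Max and activate genes of growth, ribosome production and metabolism. Mxd1, Mxd3, Mxd4, Mxi1 and Mnt dimerize with Max as well, recruit Sin3 and histone deacetylases, and act as antagonists of Myc, while Mlx partners with Mlxip (MondoA) and Mlxipl (ChREBP), the glucose-sensing arm, and with some of the antagonists. In LSKs, Myc is known for its part in the balance between self-renewal and differentiation, and Mxd1 for its rise as myeloid cells mature. In the deposited annotation all 10 genes carried the terms DNA binding and protein dimerization activity, a pair held by 398 genes or 1.15% of the table.

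The E-box that these factors bind was itself present near the start of several of the genes, and the matches are shown because they place the network's own motif at its partner genes. RefSeq promoters on GRCm38.p6, from 250 bases before to 50 bases after the annotated start, were found for 9 of the 10 genes, all but Myc. The motif CACGTG reads the same on both strands. It was found in 4 of the 9, those of Max, Mxd4, Mnt and Mlx, where a gene counted if any of its promoters held the motif. The share was 8.09% of the 27025 genes with a promoter, and 11.7% of the 9676 genes that had both a promoter and at least 10 reads. The windows below run 5′ to 3′ on the strand of the gene, with the E-box in capitals and 10 bases on each side.
Max, chr12:76962236-76962261, minus strand: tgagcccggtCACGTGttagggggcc
Mxd4, chr5:34187914-34187939, minus strand: gctgggccacCACGTGctgttgctaa
Mnt, chr11:74830791-74830816, plus strand: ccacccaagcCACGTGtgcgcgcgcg
Mlx, chr11:101087240-101087265, plus strand: tgggttggatCACGTGactgagcctc
The match began 3 bases before the start of Max, 40 before that of Mlx, 123 before that of Mnt and 219 before that of Mxd4. Of these genes Mlx and Max had log2 ratios above 0 and Mnt and Mxd4 below 0, so that the letters were found on genes that differed in either direction. A match is a description of the sequence and not a measured binding site.

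In each pair of values, week-0 comes before week-3. Depth was 6356164 gene-assigned reads for week-0 and 3886695 for week-3. A floor of 3 reads, chosen here, corresponds to 0.472 and 0.772 reads per 1000000. LSK identity was checked against listed markers. Kit was at 16.9 FPKM (fragments counted on a gene for each 1000 bases of its length and each 1000000 reads) at week-0 against 11.5 at week-3, and Ly6a, which encodes Sca1, at 19.8 and 14.8, while none of 9 lineage-positive markers, Cd3e and Itgam among them, was above 1.64 FPKM in either library. Of 10 LSK markers 9 had counting intervals below no change, against 27.3% of all tested genes. Of the 10, 4 were called lower at week-3, Flt3 among them, and Slamf1 was called higher from 10 and 15 reads, where 17.9% and 11.9% of all tested genes were called. Other groups of genes differed strongly between the libraries. All 7 mast cell markers were higher at week-3, with a summed level of 63.1 in week-0 and 1828 in week-3 (reads for each 1000 bases of merged exons and each 1000000 reads). Of 5 B cell and plasma cell markers 4 were lower at week-3, with sums of 401 and 50.4, and all 12 immediate-early genes were lower, with sums of 13773 and 4495. The part of these differences in the results below was not tested, and in bulk RNA fewer cells of a type cannot be told apart from less RNA per cell.

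Members were called when the week-3 FPKM came to 2 times the week-0 FPKM or more, or to 0.5 times or less, over genes with at least 10 reads in the libraries together. Of the 10 members 9 passed this filter, and 13689 genes did in all. By this rule Mlx was the only member called higher and Mxd1 the only one called lower, against 11.9% of all tested genes called higher, 17.9% called lower and 29.9% called in either direction. With edgeR's exact test and an assumed biological coefficient of variation of 0.4 neither member was called, nor any gene of the 7 lists around the network. Since 1 of 9 is close to the first share and below the second, the count of calls does not set the network apart from other genes, and the values of its members are what follows. The intervals given are exact 95% intervals and cover counting error only. They treat reads as independent, while amplified cDNA gives several reads of the same molecule, so they can be too narrow even for that error. The interval lay wholly above no change for 3 members (Myc, Max and Mlx) and wholly below it for another 3 (Mxd1, Mxd4 and Mnt), where 31.7% and 27.3% of all tested genes did so.

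**Figure D1:**
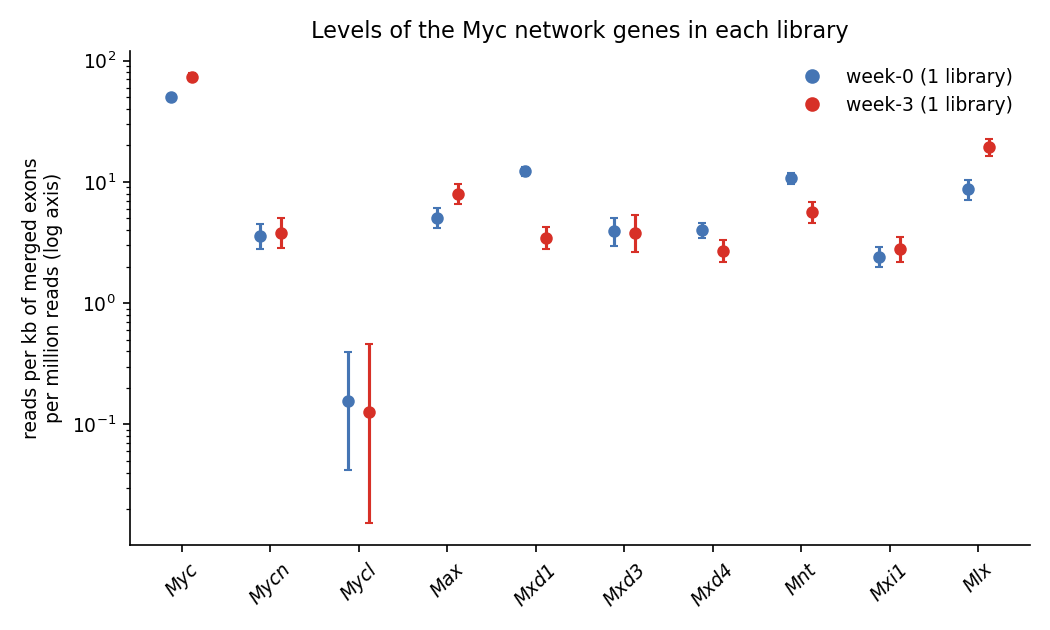
Levels of the 10 Myc network genes in the week-0 library (blue) and the week-3 library (red), on a log axis as reads per kb of merged exons and per 1000000 reads; points are 1 library each and bars are exact 95% Poisson intervals, which cover counting error only. Myc is the most abundant member in both libraries (49.9 and 73.4), Mxd1 goes from 12.2 to 3.46, Mlx from 8.66 to 19.4, and Mycl stays under 0.16.

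Myc (ENSMUSG00000022346, chromosome 15 of GRCm38 from 61985341 to 61990374) was read 862 times at week-0 and 775 times at week-3, with FPKM of 13.7 and 20.1. The fewer reads at week-3 came from a smaller library, and per read sequenced Myc was 1.47 times its week-0 level, a log2 ratio of 0.56 with an interval from 0.41 to 0.70. This was under the limit of 2 times, and the median log2 ratio over all tested genes was 0.05. Mycn, the paralog that can stand in for Myc in stem cells, had 75 and 49 reads, and its FPKM of 2.71 and 2.89 did not differ detectably at this depth (log2 ratio 0.10, interval -0.45 to 0.63). Mycl, the third paralog, had 4 and 2 reads, near the chosen floor of 3 reads, and no ratio is given for it. Myc thus made up 91.6% of the reads of the 3 Myc genes at week-0 and 93.8% at week-3.

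Myc belongs to the genes that are induced early after stimulation. The 12 immediate-early genes listed here had log2 ratios from -5.85 (Atf3) to -0.79 (Fos), all with intervals below 0, and their median was -1.58. The interval of Myc lay above 0 in the same libraries.

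Max (ENSMUSG00000059436, chromosome 12 from 76937269 to 76962248), the partner shared by both sides, had 116 and 112 reads, with FPKM of 9.10 and 14.4. The log2 ratio was 0.66 (interval 0.27 to 1.05), and the interval held that of Myc. The number of Myc reads for each Max read, a quantity that does not depend on how the libraries are scaled, was 7.43 at week-0 and 6.92 at week-3. The ratio of these was 0.931 with an exact conditional interval from 0.699 to 1.24, so that no difference between Myc and Max was detectable.

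Mlx (ENSMUSG00000017801, chromosome 11 from 101087277 to 101092207), the partner of MondoA and ChREBP, had 110 and 151 reads, more reads in the smaller library. Its FPKM was 5.40 and 12.1, which is 2.24 times higher at week-3 (log2 ratio 1.17, interval 0.80 to 1.53). The lower end of this interval is under the limit of 2 times. A stretch of 385 bases of the Mlx locus overlaps Psmc3ip on the opposite strand, which had 130 and 115 reads and a log2 ratio of 0.53, and strand-specific counting is not stated in the sources used here.

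Mxd1 (ENSMUSG00000001156, chromosome 6 from 86647042 to 86669161), the antagonist that rises in maturing myeloid cells, had 549 and 95 reads. Its FPKM was 10.9 and 3.08, a level 3.53-fold lower at week-3 (log2 ratio -1.82, interval -2.15 to -1.50). For each Max read there were 4.73 Mxd1 reads before and 0.848 after doxycycline withdrawal, and the interval of the ratio, from 0.126 to 0.255, was far from 1. Another annotated gene on the same strand overlaps 2364 bases of the locus and had 32 and 16 reads.

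Mnt (ENSMUSG00000000282, chromosome 11 from 74830920 to 74845725), the broadly expressed antagonist, had 314 and 101 reads and FPKM of 8.63 and 4.54. Its log2 ratio of -0.93 (interval -1.26 to -0.60) was just short of the limit, and with TMM scaling, which took 0.08 from every log2 ratio, Mnt was past it. Mxd4, the antagonist of resting and differentiating cells, had 215 and 89 reads and FPKM of 3.36 and 2.27, a log2 ratio of -0.56 (interval -0.94 to -0.20). Relative to Max, reads of Mnt were at 0.334 (0.233 to 0.477) and reads of Mxd4 at 0.429 (0.295 to 0.623) of their week-0 values.

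For the remaining antagonists no difference was detectable at this depth. Mxd3, the antagonist of proliferating cells, had 59 and 35 reads and FPKM of 2.87 and 2.78 (log2 ratio -0.04, interval -0.69 to 0.58). A stretch of 104 bases of its locus overlaps Prelid1 on the opposite strand, a gene with 1056 and 1171 reads. Mxi1, a Sin3-recruiting antagonist also called Mxd2, had 105 and 74 reads and FPKM of 2.94 and 3.39 (log2 ratio 0.20, interval -0.24 to 0.65). Intervals of this width do not show that either gene was unchanged.

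**Figure D2:**
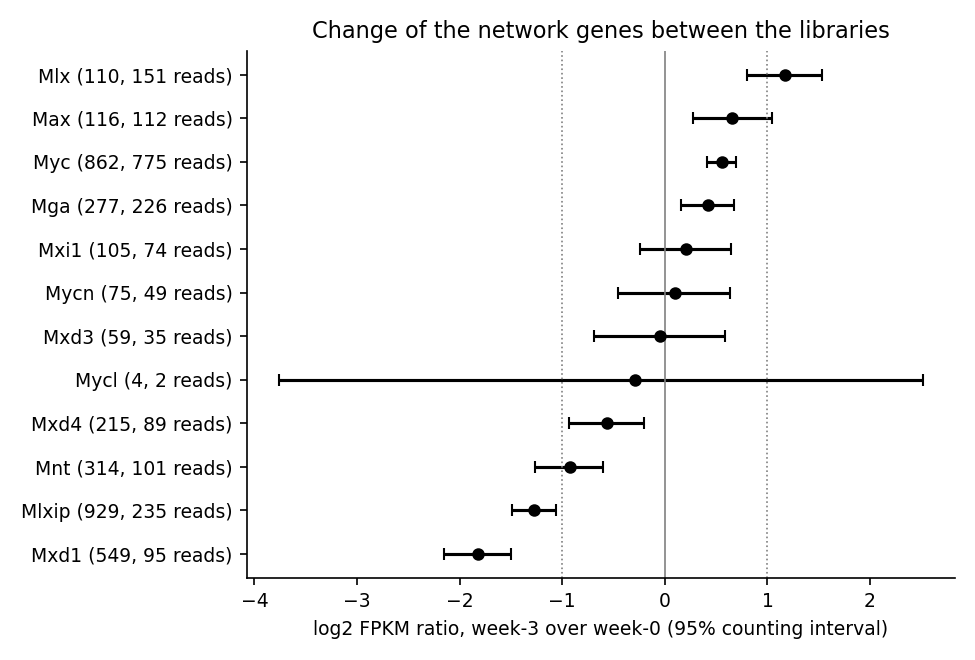
Log2 FPKM ratio of week-3 over week-0 for the 10 network genes and for Mga and Mlxip, with exact 95% counting intervals as bars and the reads at week-0 and week-3 in the labels; 1 library per time point. Dotted lines mark the limits of 2 times, passed by Mlx (1.17), Mxd1 (-1.82) and Mlxip (-1.27), while Mycl, with 4 and 2 reads, has an interval that spans both limits.

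The members were also summed by side. Of the Myc genes only Myc had a counting interval above 0, and of the 5 antagonists Mxd1, Mnt and Mxd4 had intervals below 0, with Mxd1 alone past the limit of 2 times. Summed FPKM of Myc, Mycn and Mycl was 16.5 before and 23.1 after withdrawal, and that of Mxd1, Mxd3, Mxd4, Mnt and Mxi1 was 28.7 and 16.1. The ratio of the Myc side to the antagonist side was 0.574 at week-0 and 1.44 at week-3, 2.50 times higher. In summed reads the ratio was 0.758 and 2.10, with an interval of the ratio between libraries from 2.38 to 3.21. Mxd1 alone made up 44.2% of the antagonists' reads before withdrawal and 24.1% after it. These are levels of mRNA, and protein was not measured in these files.

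**Figure D3:**
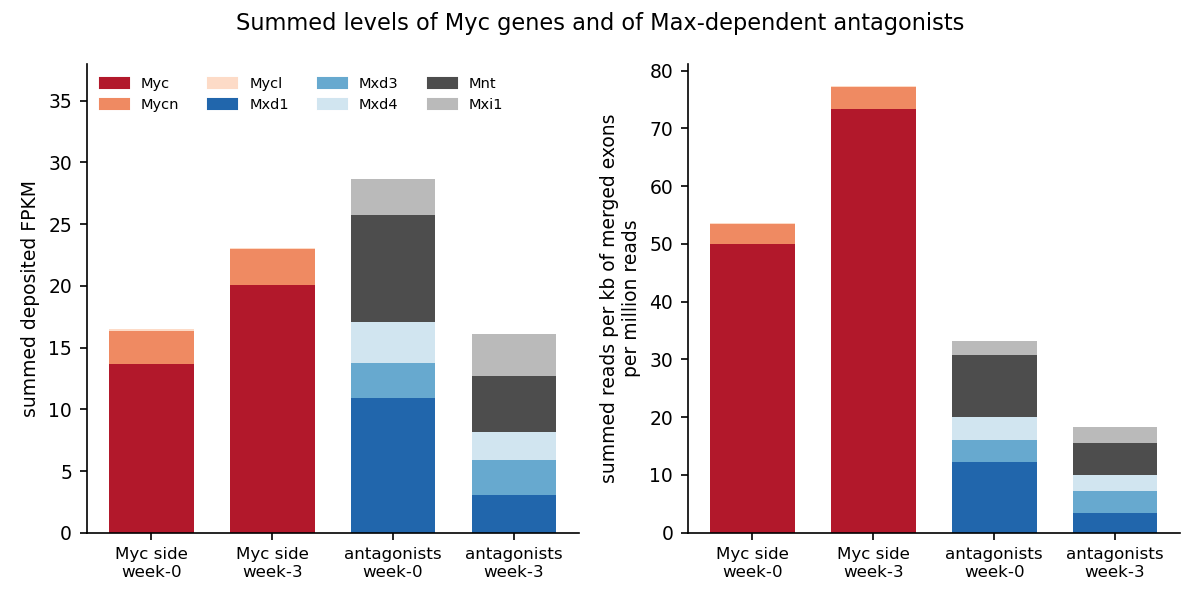
Summed levels of the 3 Myc genes (Myc side) and of the 5 antagonists that dimerize with Max in each library, stacked by gene. Levels are deposited FPKM (left) and reads per kb of merged exons and per 1000000 reads (right), with 1 library per bar. With deposited FPKM the antagonists exceed the Myc side at week-0 (28.7 against 16.5) and not at week-3, and with merged exons the Myc side is larger in both libraries (53.7 against 33.2, and 77.3 against 18.4).

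Whether Myc or its antagonists were more abundant at week-0 depended on the gene length behind the FPKM. The length implied by reads and FPKM was 9933 bases for Myc, longer than the 5034 bases of its whole locus. For 69.9% of 19625 genes with reads the implied length equalled, within 1.5 bases, the summed length of all distinct exons in GENCODE M21. In that sum, overlapping exons of different transcripts count more than once. The implied length matched the sum for 5 of the network genes, but not for Myc (sum of 8315 bases) or Max (sum of 6064). The sum thus did not account for the implied length of Myc. Merged into non-overlapping sequence, the exons of Myc cover 2717 bases. The opposite held for Max, with an implied length of 2005 bases and merged exons of 3598. Ratios of 1 gene between libraries do not change with its length, but the order of genes does. On merged exons, and in reads per kb and per 1000000 reads, the order at week-0 was Myc 49.9, Mxd1 12.2, Mnt 10.7, Mlx 8.66, Max 5.07, Mxd4 3.99, Mxd3 3.92, Mycn 3.58, Mxi1 2.42 and Mycl 0.156. Myc stood clear of the rest, and so did Mlx from Max, while Mxd1 and Mnt, Mnt and Mlx, and the neighbours from Max down to Mxi1 had overlapping counting intervals. At week-3 the order was Myc 73.4, Mlx 19.4, Max 8.01, Mnt 5.62, Mycn 3.83, Mxd3 3.80, Mxd1 3.46, Mxi1 2.79, Mxd4 2.70 and Mycl 0.127. Myc, Mlx and Max were separate from each other there, and from Max down to Mxd4 each gene overlapped its neighbour. Mxd1 moved from rank 2 to rank 7 and Mlx from rank 4 to rank 2.

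The large proteins that extend the network differed among themselves. Mlxip (ENSMUSG00000038342, chromosome 5 from 123394798 to 123457932), the MondoA partner of Mlx, fell from 929 to 235 reads, or 10.1 to 4.19 FPKM, a log2 ratio of -1.27 (interval -1.49 to -1.07). For each Mlx read there were 8.45 Mlxip reads before withdrawal and 1.56 after it, and the ratio of these was 0.185 (0.137 to 0.247). Other annotated genes on the same strand overlap the Mlxip locus. Gm43813 shares 5378 bases and had 41 and 40 reads, Gm42907 shares 2148 bases and had 5 and 1, and Gm42908 shares 870 bases and had 12 and 29. Mga, a Max partner with a T-box domain, had 277 and 226 reads and a log2 ratio of 0.42 (interval 0.16 to 0.67). Mlxipl had 4 reads at week-0 and none at week-3, near the chosen floor of 3 reads. Genes with a large total length of merged exons were lower at week-3 as a group. By this length, the median log2 ratio was -0.11 in the longest of 5 equal classes of tested genes, which holds Mlxip. The median was 0.12 in the shortest class, which holds Mlx. It was 0.01 in the class that holds Mxd1. The part of these shifts in the results was not tested.

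Genes that work with the network were counted from lists that were chosen with earlier results of these data known. The shares of all tested genes beside these counts are again 11.9% called higher and 17.9% called lower. Of 11 coactivators used by Myc, none was called higher and 1 was called lower, Kat5, an acetyltransferase of the TIP60 complex, with 293 and 58 reads (log2 ratio -1.63, interval -2.06 to -1.22). The median log2 ratio of the list was 0.04 beside 0.05 for all genes, and the sign of both turned with TMM scaling, as did that of the corepressors below. The 9 corepressors used by Mxd proteins had a median of 0.04, and Sin3a, Sin3b, Hdac1 and Hdac2 had log2 ratios between -0.08 and 0.26. Among 10 regulators of Myc turnover, Skp2, a ubiquitin ligase subunit, was called higher from only 31 and 42 reads (log2 ratio 1.15, interval 0.44 to 1.87), and Usp36, a nucleolar deubiquitinase, was called lower with 913 and 224 reads (log2 ratio -1.32). Fbxw7, the ligase that marks phosphorylated Myc for degradation, had 95 and 70 reads and a log2 ratio of 0.27 (interval -0.20 to 0.73).

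**Figure D4:**
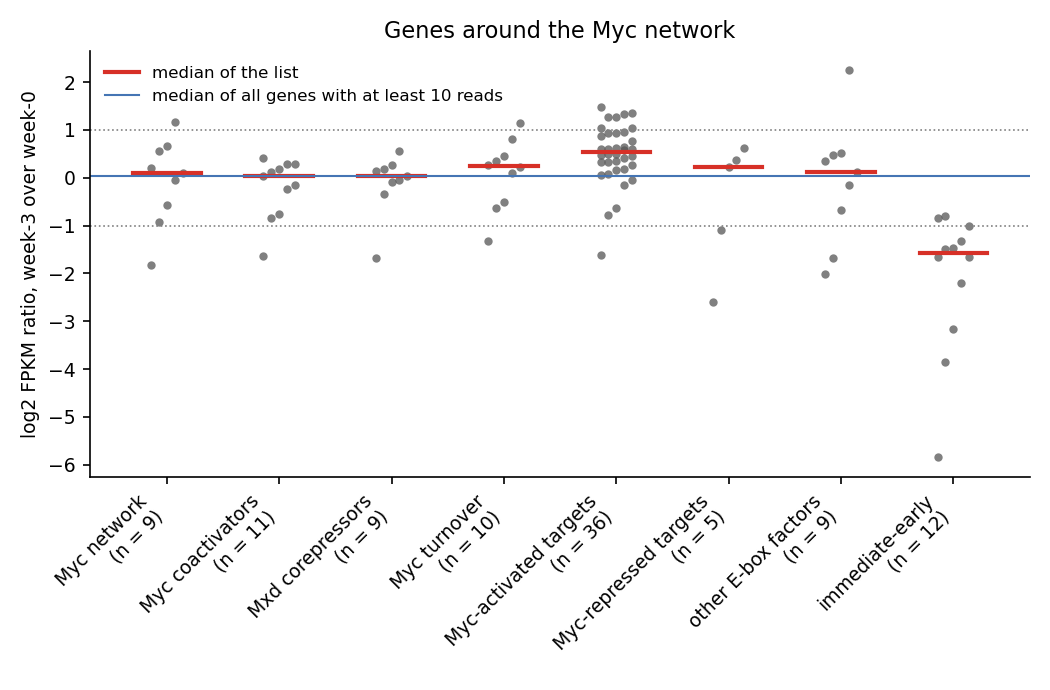
Log2 FPKM ratio of week-3 over week-0 for each gene with at least 10 reads in the network and in the lists around it; points are genes, red bars are medians of a list, the blue line is the median of all tested genes (0.05) and dotted lines mark the limits of 2 times. The Myc-activated targets have a median of 0.54 and the immediate-early genes one of -1.58, and the other lists drawn have medians between 0.04 and 0.25 (Mga and Mlxip are not drawn).

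Of 36 genes that Myc is known to activate 7 were called higher at week-3, 19.4% against 11.9% of all tested genes, and 28 were within the limits. The log2 ratio was above 0 for 31 of the 36, and for 7146 of all 13689 tested genes. Only 1 was called lower, 2.78% against 17.9%. The median log2 ratio of the list was 0.54 beside 0.05 for all genes. As the list was chosen with earlier results of these data known, these contrasts describe it and are no independent test. Counting intervals lay above 0 for 77.8% of the list against 31.7% of all tested genes, but the median of these genes was 1362 reads against 203 for all tested genes, which narrows their intervals. Together they took 0.767% of all reads before withdrawal and 1.15% after it.

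The largest positive log2 ratio among these targets was that of Tfrc, the transferrin receptor, with 140 and 238 reads and FPKM of 2.28 and 6.35 (log2 ratio 1.48, interval 1.17 to 1.79). Nop16, a nucleolar protein, followed with 504 and 790 reads (log2 ratio 1.36, interval 1.19 to 1.52). Ldha, the lactate dehydrogenase subunit of glycolysis, had 4588 and 7097 reads and FPKM of 157 and 398 (log2 ratio 1.34, interval 1.29 to 1.39). The other 4 called genes were Cdc25a (1.28), Srm (1.28), Ncl (1.04) and Polr1b (1.03), of which Ncl and Polr1b were under the limit with TMM or median-of-ratios scaling. Not all targets went this way. Odc1, the polyamine enzyme next to Srm in its pathway and a much-used Myc target, had 1792 and 642 reads and a log2 ratio of -0.77 (interval -0.90 to -0.64), and Ppan had -0.64. Ccnd2 was at -0.16. Tert, called lower, had 20 and 4 reads (log2 ratio -1.61) and is known only within an interval from -3.62 to -0.03. An E-box CACGTG was in the promoter of 9 of the 29 targets that had one in RefSeq. This was 31.0%, against 11.7% of the genes that had both a promoter and at least 10 reads. The median log2 ratio of the targets was 0.45 with the motif and 0.63 without it.

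Of 8 genes that Myc is known to repress 5 had at least 10 reads. Cdkn1a, the p21 inhibitor of cyclin-dependent kinases, fell from 14243 to 1439 reads, or 729 to 120 FPKM, a log2 ratio of -2.60 (interval -2.68 to -2.52). Ndrg1 fell from 1014 to 290 reads (log2 ratio -1.10, interval -1.29 to -0.91). Cdkn1b, the p27 inhibitor, had 286 and 204 reads and a log2 ratio of 0.22 (interval -0.04 to 0.49), and Gadd45a was at 0.63 with 72 and 68 reads. The median of the 5 genes was 0.22, so the list as a whole did not follow its largest members.

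The genes whose levels lay closest to those of Myc were found by distance in log2 FPKM over the 2 libraries, among 8816 genes with at least 100 reads. They were Caml (13.7 and 20.1 FPKM), Cdc16 (13.6 and 20.4), Stk16 (13.5 and 20.3), Necap2 (13.7 and 20.5) and Rbm15 (13.4 and 19.9), at distances between 0.00659 and 0.0303. With 2 libraries such a match says only that both values were alike. It also rests on the deposited FPKM of Myc, whose implied length of 9933 bases stands against 2717 bases of merged exons, and matching on merged exons was not done.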

How the data were processed

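BM LSKs were sorted by flow cytometry, and total RNA of 3 pooled mice per time point was sequenced. Per the study's methods, cDNA was made with a SMARTer low-input kit, and paired-end reads were trimmed and mapped to GRCm38 by TopHat2 2.0.9 allowing 2 mismatches (mm10 in the submitters' processing notes). The counting tool, annotation release and strand setting are not given in the sources used here. The authors deposited counts, whole reads per gene without normalization, and FPKM, which the authors scaled by a gene length and by the total reads counted on genes.

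Tables were joined by Ensembl identifier, and groups were taken from the labelled time. Calls needed an FPKM ratio of 2 or more, or 0.5 or less, over genes with at least 10 reads in both libraries together. Intervals at 95% were exact Clopper-Pearson intervals of the week-3 share of reads. Ratios of 2 genes used the exact conditional odds ratio. Levels between genes were also computed on merged exons of GENCODE M21. Alternatives were TMM of edgeR 4.0.16, median-of-ratios of DESeq2 1.42.0 (R 4.3.3), other limits, filters and pseudocounts, and the exact test of edgeR with an assumed biological coefficient of variation (BCV) of 0.1 or 0.4, with q under 0.05 besides the fold limit. With single libraries such a test compares the libraries and not the conditions. The merged-exon length and a total without immediate-early, mast and B-lineage genes were added after seeing the data. Other steps ran in Python 3.11.15 (scipy 1.17.1, pandas 2.3.3, numpy 2.4.6, matplotlib 3.10.9), and the interval, call and edgeR steps were tested on simulated data.

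The members and lists were chosen with earlier results of these data known. Genes named are all members, Mga, Mlxip and Mlxipl, up to 3 genes at each end of a list among those past 2 times, the markers, and the 5 genes nearest to Myc. The other listed genes given with values were chosen after these were seen. Some results on listed genes are not reported here.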

Additional observations from a re-analysis of the deposited data

How the results depend on the processing

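With 1 library per time point no difference could be checked against the spread between mice, and with 3886695 reads in the smaller library genes such as Mycl (4 and 2 reads) or Mxd3 (59 and 35) allow no statement on small changes. No paired analysis was possible because each group is 1 library. Another scaling, filter or pseudocount kept each of 70 log2 ratios of network genes within its counting interval and none changed sign. A filter leaves a ratio as it is, and a scaling takes the same constant, at most 0.08, from every ratio. This outcome was therefore largely fixed by construction. The members called numbered 1 higher and 1 lower. With a limit of 1.5 times they were 2 higher (Mlx and Max) and 2 lower (Mxd1 and Mnt), with TMM scaling 2 were lower (Mxd1 and Mnt), and with an assumed BCV of 0.4 in edgeR's exact test 0 were called in either direction, while a BCV of 0.1 gave the same members as the fold limit alone. Over the 7 lists around the network 9 genes were called higher and 9 lower. A limit of 1.5 times gave 21 and 15, and a BCV of 0.4 gave 0 and 0. The log2 change of Myc reads relative to Max was -0.10, and relative to Mlx it was -0.61. The log2 change of the Myc side over the antagonist side was 1.32, and ranged from 1.28 without Mnt to 1.47 in reads. Over all tested genes, calls numbered 1633 higher and 2455 lower, 52 and 195 with a BCV of 0.4, 917 and 1317 with at least 50 reads, 686 and 1068 with a pseudocount of 1, and 3362 and 3664 with a limit of 1.5 times. The causes were not tested, other than that these settings are stricter or wider by construction.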

Other observations

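Other factors that bind E-boxes through the same kind of domain, but outside the network, were counted from a list of 9 genes. Tfec, of the MiT family, was higher at week-3 with 56 and 163 reads and FPKM of 1.26 and 6.02 (log2 ratio 2.25, interval 1.80 to 2.72). Tfe3, of the same family and a regulator of lysosomal genes, was lower with 393 and 60 reads (log2 ratio -2.00, interval -2.42 to -1.61). Mitf, the third member measured, had 36 and 24 reads and a log2 ratio of 0.12 (interval -0.68 to 0.91), and Tfeb had 80 and 44 reads and a log2 ratio of -0.15. Srebf2, the activator of cholesterol synthesis, was lower with 1830 and 350 reads (log2 ratio -1.68), and Srebf1 was at -0.67. Usf1 and Usf2 had log2 ratios of 0.51 and 0.48. The 3 called genes of the list, 1 higher and 2 lower, stood against 11.9% and 17.9% of all tested genes.

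Txnip and Arrdc4, glucose-responsive genes known as targets of MondoA and Mlx dimers, were looked up after the values of Mlxip and Mlx had been seen. Txnip had 318 and 267 reads (log2 ratio 0.46, interval 0.22 to 0.70), and Arrdc4 had 87 and 42 reads (log2 ratio -0.34, interval -0.91 to 0.21). Neither was past the limit of 2 times, and a relation of these genes to the levels of Mlxip and Mlx was not tested. Pvt1, the noncoding gene next to Myc on chromosome 15, was also looked up afterwards and had 12 and 22 reads (log2 ratio 1.58, interval 0.51 to 2.73).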
